A study of Arabidopsis thaliana with 8 samples.

Results

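In Arabidopsis thaliana rosettes, 34 of 36796 annotated loci were near-silent in the wild type and passed a low limit in every library of the double mutant hta9 hta11. The loci were chosen from the deposited counts, scaled by the total of each library to CPM (counts per 1000000 counts). A locus was taken when its mean over the 4 wild-type libraries was below 0.3 CPM and its level was at least 0.5 CPM in each of the 4 mutant libraries. Both thresholds were met by 42 loci, of which 8 were set aside by name: AGO5, SEP2, AP3, AT1G75945, AT5G22430, LTI65 (RD29B), scpl17 and ADF8. A further locus set aside by name, CRK23, did not meet the rule, with a wild-type mean of 0.639 CPM. Because the choice used the level in both genotypes, the difference between the genotypes at these loci is a description of how they were picked and not a finding.

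The study profiled poly(A) RNA of whole rosettes of accession Col-0 by RNA-seq. Seeds had a cold treatment of 3 days, and the plants were 17 days old, had not bolted and were kept at 22 °C and 150 μE of light in cycles of 16 h light and 8 h dark, and shoots were taken 6 h after the light came on. Each library came from 5 plants. The 2 genotypes were the wild type and hta9 hta11, in which the H2A.Z genes HTA9 and HTA11 are mutated. The labels do not give the kind of mutation, and the protocol mentions fewer replicates per genotype than the 4 libraries that are labelled. Library totals were between 31611735 and 47467130 counts. In whole-rosette RNA, a transcript in a few cells and a low level in all cells cannot be told apart.

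H2A.Z is a variant of histone H2A that the SWR1 complex places into nucleosomes. In plants it lies in the nucleosomes just after the transcription start of active genes, and it spreads over the bodies of genes that are silent but can be switched on by development or stress. Many of those silent genes also carry H3K27me3, the mark laid down by Polycomb repressive complexes, and the series as a whole concerns the relation between the H2A.Z variants and that mark.

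The mutant libraries differed in their HTA9 and HTA11 counts. HTA9 stood at 99.1, 93.1, 96.9 and 83.8 CPM in wild-type libraries 1 to 4, and at 60.5, 15.5, 34.1 and 16.9 CPM in mutant libraries 1 to 4. HTA11 stood at 51.6, 39.2, 44.1 and 40.6 CPM in the wild type, against 25.98, 3.11, 14.4 and 3.68 CPM in the mutant. Mutant library 1 kept the most counts of both genes and library 3 the next most, while all 4 mutant libraries lay below all 4 wild-type libraries. HTA8, the third expressed H2A.Z gene, had 16.1 ± 1.44 and 18.3 ± 3.07 CPM (SD, n = 4; edgeR adjusted p = 0.665), and HTA4 had no count.

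Over the 4 mutant libraries, the summed level of the 34 loci had the reverse order of HTA9 and of HTA11. It was 23.4, 44.6, 30.7 and 37.4 CPM in mutant libraries 1 to 4, against 6.603, 7.09, 8.27 and 7.21 CPM in the wild type. Library 1, with the most HTA9 and HTA11 counts, was the lowest and library 3 the second lowest. Libraries 2 and 4, with the fewest, were the highest. Of the 34 loci, 24 had their lowest mutant value in library 1 and 8 in library 3, whereas 19 had their highest in library 2 and 10 in library 4. Relative to library 1, the median locus was 1.67 times higher in library 2, 1.23 times in library 3 and 1.48 times in library 4, and 30, 26 and 30 of the 34 loci were higher than in library 1. Over all 20214 tested genes the corresponding shares were 56.5%, 53.1% and 56.6%. With 4 mutant libraries no correlation was computed, and the part of the residual HTA9 and HTA11 transcript in this order was not tested.

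**Figure D1:**
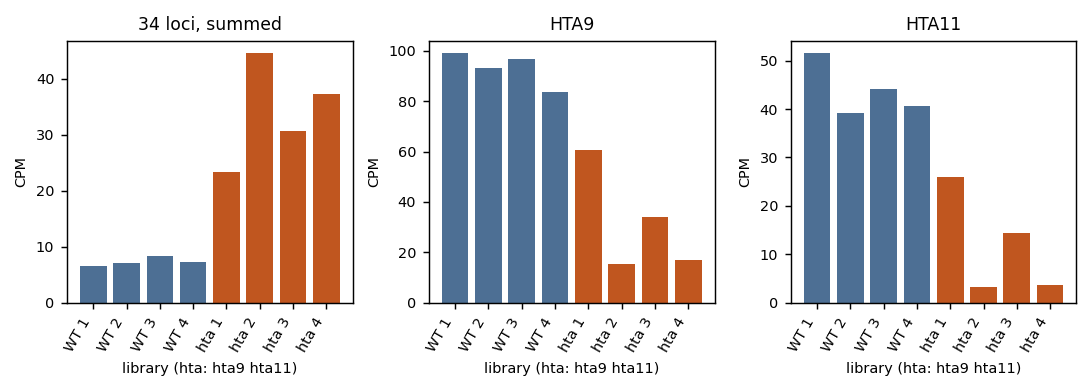
Summed CPM of the 34 loci (left), and CPM of HTA9 (middle) and HTA11 (right), one bar per library, wild type in blue and hta9 hta11 in orange. Mutant library 1 has the lowest sum (23.4 CPM) and the highest HTA9 (60.5 CPM) of the mutant libraries.

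The loci had few reads even in the mutant. Their mutant means ran from 0.563 to 2.30 CPM with a median of 0.849 CPM, and 12 of 34 reached a mean of 1 CPM. Single mutant libraries held 16 to 199 counts of a locus, and the 4 wild-type libraries together held 0 to 44 counts. Only 4 of the 34 had any wild-type library without a count, so the others gave reads in every library of both genotypes. AT5G37940 alone was at or above 1 CPM in every mutant library. Just inside the wild-type limit were PUP17, FRO1 and AT5G66150, with means of 0.295, 0.294 and 0.289 CPM. Just outside it lay SHP1, a MADS-domain factor of carpels, FH19, a formin, and CRC (CRABS CLAW), a YABBY factor of carpels and nectaries. SHP1 had 0.162, 0.492, 0.0785 and 0.468 CPM in wild-type and 0.674, 0.8305, 0.506 and 0.906 CPM in mutant libraries, in the order of library numbers; where values follow without these words, the wild type comes first. FH19 had 0.244, 0.271, 0.314 and 0.375 CPM against 0.843, 1.84, 0.664 and 1.24 CPM. CRC had 0.352, 0.271, 0.366 and 0.219 CPM against 0.716, 1.38, 0.759 and 1.29 CPM. These 3 met the mutant limit and missed the wild-type one. INT2, AT2G26390 and MIOX4 were just inside the mutant limit, each with a lowest library of 0.506 CPM. Just outside it, AT4G29550 had 0.298, 0.221, 0.183 and 0.156 CPM against 0.611, 0.493, 0.633 and 0.823 CPM. AT5G24080 had 0.0812, 0.0738, 0.157 and 0.531 CPM against 0.527, 0.493, 0.759 and 0.659 CPM. SPO11-1, which makes the DNA breaks of meiosis, had 0.135, 0.468, 0.105 and 0.375 CPM against 0.485, 0.701, 0.569 and 0.631 CPM. Each of these missed the mutant limit in at least 1 library.

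**Figure D2:**
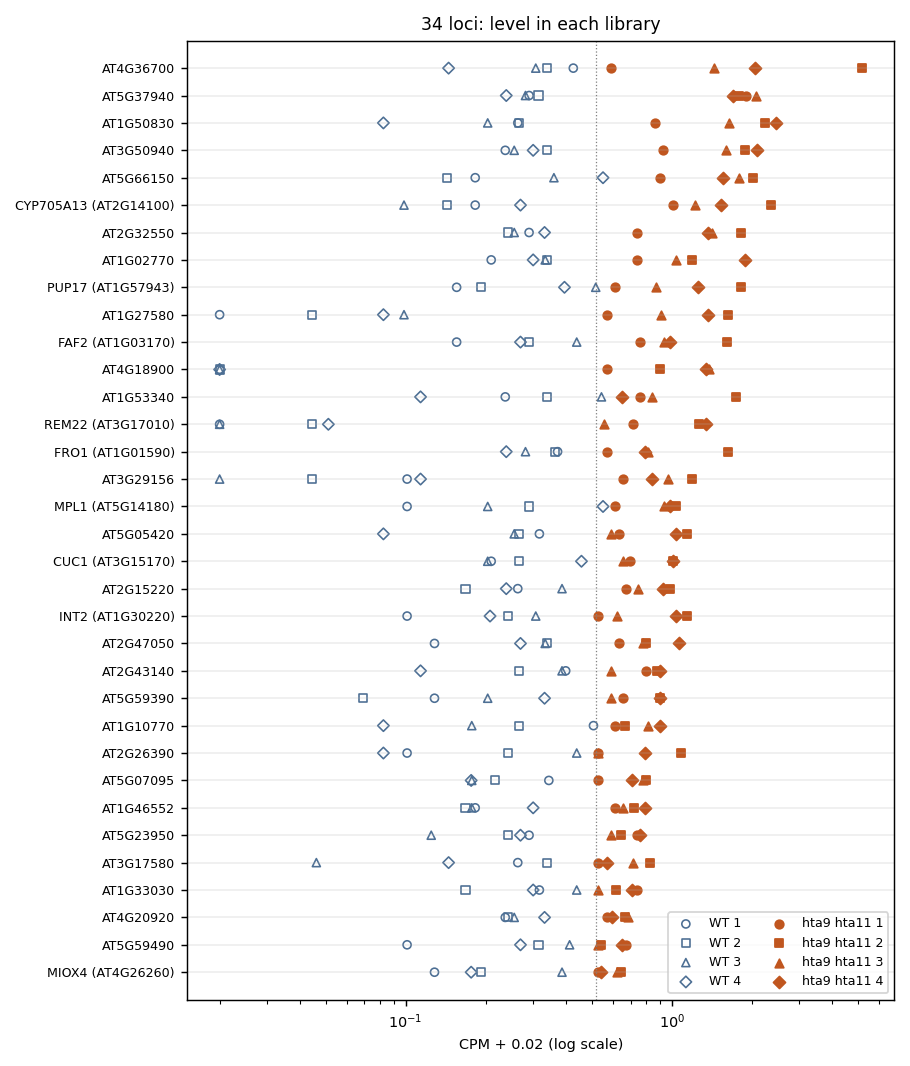
CPM of each of the 34 loci in each library, plotted as CPM + 0.02 on a log axis, with open blue symbols for the wild type and filled orange symbols for hta9 hta11; symbol shapes give the library number and the dotted line marks 0.5 CPM. The rows are ordered by mutant mean, from AT4G36700 (2.30 CPM) to MIOX4 (0.563 CPM), and AT4G18900 has all 4 wild-type symbols at 0 counts.

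A few loci had almost no wild-type reads. AT4G18900, annotated as a transducin/WD40 repeat protein (chromosome 4, 10356465 to 10359169), had 0 counts in all 4 wild-type libraries and 0.548, 0.882, 1.36 and 1.32 CPM in mutant libraries 1 to 4, 151 counts in all. Against the level that 3 counts over the 4 wild-type libraries would give (0.0203 CPM), its pooled mutant level was at least 48.3-fold higher. REM22 (AT3G17010, chromosome 3, 5800272 to 5802468), a B3-domain transcription factor that the RefSeq annotation describes as expressed in stamen primordia, had 2 wild-type counts and 146 mutant counts. Its mutant libraries held 0.695, 1.25, 0.538 and 1.32 CPM, and the ratio of the pooled levels was 70.1, with an exact 95% interval of 19.0 to 584 that covers counting error only. AT1G27580, an F-box protein of the DUF295 group (chromosome 1, 9589807 to 9591075), had 6 wild-type counts and mutant levels of 0.548, 1.61, 0.886 and 1.34 CPM (pooled ratio 26.4, interval 11.9 to 73.0). The pseudogene AT3G29156 (chromosome 3, 11122868 to 11127592) had 7 wild-type counts and mutant levels of 0.632, 1.168, 0.949 and 0.823 CPM (pooled ratio 18.5, interval 8.74 to 46.9). In REM22 the mutant library with the least transcript was library 3, and in the other 3 loci it was library 1.

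The 250 bases upstream of the annotated start of REM22, AT1G27580 and AT3G29156 are shown because these 3 loci had the fewest wild-type reads among those with no annotated exon in that window. They were read from the RefSeq assembly TAIR10.1 and are given 5′ to 3′ on the strand of the gene, with capitals for TATAAA, the one of the motifs searched that they hold. REM22 lies on the plus strand (chr3:5800022-5800271), and AT1G27580 (chr1:9591076-9591325) and AT3G29156 (chr3:11127593-11127842) lie on the minus strand.
REM22: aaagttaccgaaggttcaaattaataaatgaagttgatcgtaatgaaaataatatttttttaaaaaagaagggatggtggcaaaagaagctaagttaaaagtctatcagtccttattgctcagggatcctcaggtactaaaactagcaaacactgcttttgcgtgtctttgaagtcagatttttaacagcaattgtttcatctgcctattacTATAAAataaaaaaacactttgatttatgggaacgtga
AT1G27580: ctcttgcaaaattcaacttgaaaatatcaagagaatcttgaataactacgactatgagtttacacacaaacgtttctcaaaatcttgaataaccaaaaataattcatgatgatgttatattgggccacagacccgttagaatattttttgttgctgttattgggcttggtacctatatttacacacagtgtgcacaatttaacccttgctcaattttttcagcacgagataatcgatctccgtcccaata
AT3G29156: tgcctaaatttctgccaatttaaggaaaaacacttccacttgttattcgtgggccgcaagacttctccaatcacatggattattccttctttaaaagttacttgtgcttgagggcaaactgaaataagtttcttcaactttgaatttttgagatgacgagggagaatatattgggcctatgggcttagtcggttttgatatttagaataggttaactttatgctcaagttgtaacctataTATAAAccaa
In REM22 the TATAAA began 38 bases before the annotated start and in AT3G29156 10 bases before it. AT1G27580 held none of the motifs in this window.

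The same motifs were counted in all 34 upstream windows and in all 37897 annotated windows of the same length, on both strands. TATAAA, the core of the TATA box, was present in 19 of 34 windows (55.9%, against 44.6% of all windows), and GAGAGA, the repeat bound by BPC factors, in 9 (26.5% against 21.0%). The telobox AAACCCTA was found in 2 windows (5.88% against 4.75%), the G-box CACGTG in 3 (8.82% against 5.39%), and the CArG box of MADS-domain proteins in 0 (against 2.25%). The median GC content was 33% in the 34 windows and 32% in all windows.

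The RefSeq annotation lists 31 as protein-coding, 2 as pseudogenes and 1 as a snoRNA. No pair of the 31 proteins matched each other with blastp at E below 1e-10. By annotation, AT1G10770 and AT2G47050 still share a superfamily, that of the invertase and pectin methylesterase inhibitors. By annotated role, 5 were regulators, 4 concerned transport or inositol, 5 were inhibitors, secreted proteins or cupins, 8 were enzymes, 6 had other named domains, 3 had names that say little of their role (an F-box DUF295, a DUF626 and an SsrA-binding protein) and 3 were noncoding.

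Among the regulators, CUC1, a NAC factor that sets the boundaries of organs at the shoot apical meristem, had 0.189, 0.246, 0.183 and 0.437 CPM in wild-type and 0.674, 0.986, 0.633 and 0.988 CPM in mutant libraries. FAF2, of the FAF proteins that can regulate the size of the shoot meristem, had 0.135, 0.271, 0.419 and 0.2498 CPM against 0.737, 1.58, 0.917 and 0.961 CPM. AT2G32550, an Rcd1-like protein related to a subunit of the CCR4-NOT deadenylase complex, had 0.271, 0.221, 0.236 and 0.312 CPM against 0.716, 1.79, 1.39 and 1.34 CPM. The lowest mutant library of these 3 genes stayed above the highest wild-type library, as in all 34 loci. The rule fixes this in large part, and it held for 8.33% of tested genes. Library 2 or 4 was at the top in these 3 genes. The bHLH gene AT2G43140 had means of 0.271 and 0.771 CPM.

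Both inositol genes were near the lower limit. INT2, a transporter of myo-inositol, had 0.0812, 0.221, 0.288 and 0.187 CPM in wild-type and 0.506, 1.12, 0.601 and 1.02 CPM in mutant libraries. MIOX4, an oxygenase that opens the ring of myo-inositol, had 0.108, 0.172, 0.366 and 0.156 CPM against 0.506, 0.623, 0.601 and 0.522 CPM. INT2 was split between libraries 2 and 4 on the one hand and 1 and 3 on the other, and MIOX4 was nearly level over the mutant libraries. FRO1, a ferric-chelate reductase, had 0.352, 0.345, 0.262 and 0.219 CPM against 0.548, 1.61, 0.791 and 0.769 CPM. PUP17, of the purine permeases, had 0.135, 0.172, 0.497 and 0.375 CPM against 0.5899, 1.79, 0.854 and 1.24 CPM, and for both FRO1 and PUP17 library 2 was the highest and library 1 the lowest.

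AT4G36700, of the cupin superfamily that includes seed storage proteins, varied most. It had 0.406, 0.3199, 0.288 and 0.125 CPM in wild-type and 0.569, 5.16, 1.42 and 2.03 CPM in mutant libraries, a mutant mean of 2.297 ± 2.004 CPM (SD, n = 4). The mutant values spanned 9.08-fold, and library 1 was only a little above the highest wild-type library. Both invertase and pectin methylesterase inhibitors were in the range of most loci: AT1G10770, whose reduction is annotated as slowing pollen tube growth, had 0.487, 0.246, 0.157 and 0.0624 CPM against 0.5899, 0.649, 0.791 and 0.878 CPM. AT2G47050, the other, had 0.108, 0.3199, 0.314 and 0.2498 CPM against 0.611, 0.779, 0.759 and 1.04 CPM. In AT1G10770 the highest wild-type library (0.487 CPM) came close to the lowest mutant library (0.590 CPM). The serpin AT2G26390, a serine protease inhibitor, had 0.0812, 0.221, 0.419 and 0.0624 CPM against 0.506, 1.06, 0.506 and 0.769 CPM. The basic secretory protein AT2G15220 had means of 0.244 and 0.812 CPM.

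Of the enzymes, AT5G37940 was the most even. This zinc-binding dehydrogenase had 0.271, 0.295, 0.262 and 0.219 CPM in wild-type and 1.87, 1.76, 2.06 and 1.67 CPM in mutant libraries. Its mutant libraries spanned 1.23-fold, and library 1 was not its lowest. CYP705A13, a cytochrome P450, had 0.162, 0.123, 0.0785 and 0.2498 CPM against 0.9902, 2.34, 1.202 and 1.51 CPM. AT3G50940, an AAA-type ATPase next to its relative BCS1, had 0.217, 0.3199, 0.236 and 0.281 CPM against 0.906, 1.87, 1.58 and 2.06 CPM. AT5G66150, of glycosyl hydrolase family 38 (alpha-mannosidases), had 0.162, 0.123, 0.3402 and 0.531 CPM against 0.885, 1.998, 1.77 and 1.54 CPM. The last 3 were lowest in library 1.

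The remaining enzymes were nearer the limit. MPL1, a lipase induced by the aphid Myzus persicae, had means of 0.266 and 0.870 CPM, and AT5G05420, an FKBP-like isomerase, 0.210 and 0.828 CPM. The O-methyltransferase AT1G33030 and the HAD hydrolase AT5G59490 differed least of all 34, with mutant to wild-type ratios of 2.19 and 2.27. AT5G59490 had 0.0812, 0.295, 0.393 and 0.2498 CPM against 0.653, 0.519, 0.506 and 0.631 CPM, and both were highest in mutant library 1.

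Among the loci with other domains, AT1G50830, of the plant mobile domain family, had 0.244, 0.246, 0.183 and 0.0624 CPM in wild-type and 0.843, 2.21, 1.61 and 2.44 CPM in mutant libraries. This locus was 9.66-fold higher by the means and followed the common order with libraries 4 and 2 at the top. AT5G59390, of the XH/XS proteins, a family with members in RNA-directed DNA methylation, had means of 0.163 and 0.741 CPM. AT4G20920, a double-stranded RNA-binding protein, had 0.217, 0.221, 0.236 and 0.312 CPM against 0.548, 0.649, 0.664 and 0.576 CPM and spanned only 1.21-fold over the mutant libraries. AT5G23950, with a calcium-dependent lipid-binding domain, had 0.271, 0.221, 0.105 and 0.2498 CPM against 0.716, 0.623, 0.569 and 0.741 CPM, a span of 1.302-fold. The C1-domain gene AT1G53340 had means of 0.288 and 0.976 CPM. AT1G02770, with the domain DUF626, had 0.189, 0.3199, 0.314 and 0.281 CPM in wild-type and 0.716, 1.168, 1.01 and 1.87 CPM in mutant libraries, and AT3G17580, annotated as an SsrA-binding protein, had means of 0.179 and 0.639 CPM.

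The 3 noncoding loci were the pseudogenes AT3G29156 and AT1G46552, each a single annotated exon of 4725 and 4594 bases, and the snoRNA gene AT5G07095 of 140 bases. AT1G46552 had 0.162, 0.148, 0.157 and 0.281 CPM in wild-type and 0.5899, 0.701, 0.633 and 0.769 CPM in mutant libraries. AT5G07095 had 0.325, 0.197, 0.157 and 0.156 CPM against 0.506, 0.779, 0.759 and 0.686 CPM. On a scale per length, the mutant mean was highest for AT5G07095 at 4.87 CPM per kilobase of exon, followed by AT5G05420 (1.92), AT5G37940 (1.299), AT4G36700 (1.25) and AT3G50940 (1.05), and lowest for the pseudogenes AT1G46552 (0.146) and AT3G29156 (0.189). AT5G07095 was the shortest of the 34, so dividing by length raised it most, and its wild-type mean was also the highest on this scale (1.49). The median of the 34 was 0.654 CPM per kilobase.

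The order of the loci agreed in part between the mutant libraries. Over the 34 loci, Spearman's rho between pairs of hta9 hta11 libraries ran from 0.343 to 0.753 with a median of 0.561, and Pearson's r on log2(CPM + 0.1) from 0.354 to 0.757. The pairs among libraries 2, 3 and 4 gave rho of 0.714 (2 and 3), 0.753 (2 and 4) and 0.673 (3 and 4). The 3 pairs with library 1 gave 0.397, 0.343 and 0.448. Between wild-type libraries, where the rule holds the levels below 0.3 CPM on average, rho ran from 0.00524 to 0.436. These correlations are across genes that share libraries and transcript lengths, and no p was attached to them. Without the 10 loci of highest mutant mean, the median rho was 0.175.

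At the top of the order, 6 loci were among the highest 11 in every mutant library: AT5G37940, AT1G50830, AT3G50940, AT5G66150, CYP705A13 and AT2G32550. At the bottom, 1 locus, MIOX4, was among the lowest 11 in every one. The median locus moved over 13 ranks between its best and its worst library. AT3G50940 moved least, between ranks 2 and 5. AT4G36700 moved most, from rank 25 in library 1 to rank 1 in library 2, and AT1G53340 and AT1G33030 moved over 23 ranks each.

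**Figure D3:**
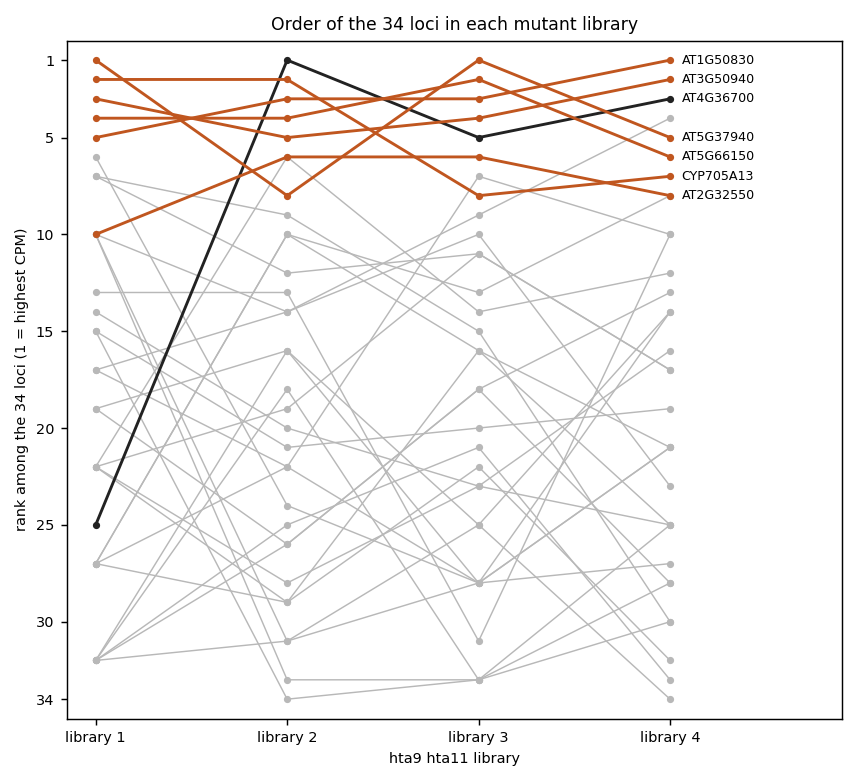
Rank of each of the 34 loci by CPM (1 is the highest) in hta9 hta11 libraries 1 to 4, one line per locus. The 6 loci in orange are among the highest 11 in every library, and AT4G36700, in black, goes from rank 25 in library 1 to rank 1 in library 2.

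The loci were also chosen on 3 mutant libraries at a time, as a description, since the rule keeps the wild type low in each choice. When library 1 was kept out of the choice, 63 loci met the rule on the other 3. Of these, 61 (96.8%) were higher in library 1 than in every wild-type library, and 34 (54.0%) reached 0.5 CPM there. Over all near-silent loci, 9986 of which had no count in any library, those shares were 10.6% and 0.64%. With library 2 kept out, 40 loci were chosen and 34 (85.0%) reached 0.5 CPM. With library 3 kept out the numbers were 48 and 34 (70.8%), and with library 4 kept out 35 and 34 (97.1%). In the library kept out, 90%, 89.6% and 100% of the loci chosen without libraries 2, 3 and 4 lay above every wild-type library. Over all near-silent loci those shares were 11.7%, 10.6% and 12.1%, and 1.21%, 0.73% and 1.12% reached 0.5 CPM. The 34 that reached 0.5 CPM each time are the chosen loci themselves, and keeping out library 1 gave the most loci.

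The opposite pattern was rarer. Of 16945 loci with a wild-type mean below 0.3 CPM, 9986 had no count in any library, 175 reached 0.5 CPM in 1 mutant library, 83 in 2, 50 in 3 and 42 in all 4. Of 16644 loci with a mutant mean below 0.3 CPM, 76 reached 0.5 CPM in 1 wild-type library, 13 in 2, 6 in 3 and 4 in all 4. These 4 were AT1G06090, of the fatty acid desaturases (0.707 and 0.252 CPM in wild type and mutant), AT1G08293, a noncoding RNA (0.652 and 0.279 CPM), AT4G11400, with ARID and myb-like domains (0.847 and 0.258 CPM), and AT4G13577, an uncharacterized protein (0.871 and 0.291 CPM). Their difference too was fixed by the rule that picked them. A look without mutant libraries 1 and 3, added once the values were known, gave 109 loci that met the rule and 17 that met the reverse rule. Fewer libraries had to pass 0.5 CPM in that setting.

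**Figure D4:**
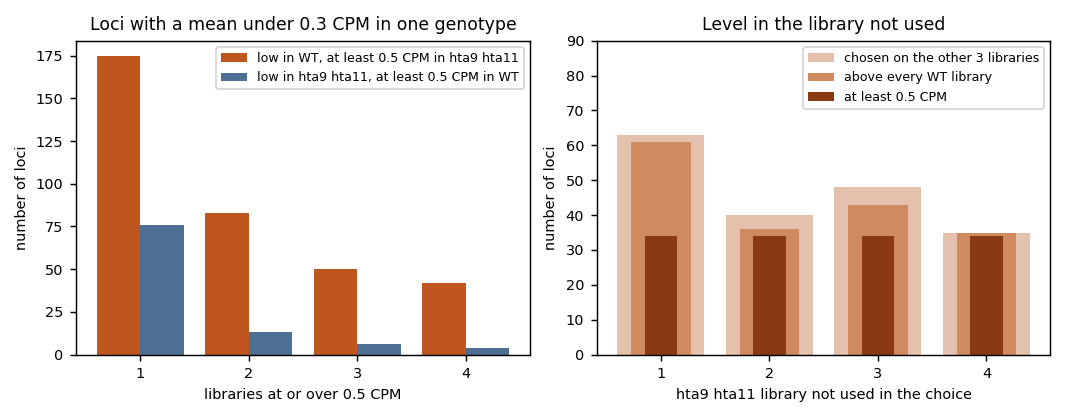
Left, number of loci with a mean under 0.3 CPM in one genotype by how many libraries of the other genotype reached 0.5 CPM (orange, 175, 83, 50 and 42 loci low in the wild type; blue, 76, 13, 6 and 4 loci low in hta9 hta11). Right, loci chosen on 3 mutant libraries (light), those above every wild-type library in the library not used (middle) and those at 0.5 CPM or more there (dark, 34 each time).

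In the test across all genes, run with edgeR's quasi-likelihood method and Benjamini-Hochberg adjustment, 504 of 20214 tested genes rose in hta9 hta11, which is 2.49%. In either direction 757 genes (3.74%) changed. All 34 loci passed the count filter, which their mutant levels guaranteed, and 24 of them were called higher, a number that the choice of the loci fixes in large part and that is given as a description. The 10 others had adjusted p-values up to 0.126. The number called was 13 without mutant library 2, 11 without mutant library 4 and 14 without wild-type library 2. All 34 also had their 4 mutant libraries above their 4 wild-type libraries, as did 8.33% of tested genes. AT5G37940 was called in all 15 fits, and in the fit that required 1 CPM in 4 libraries it was the only one of the 34 left.

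The loci were scattered over the genome. Chromosomes 1 to 5 held 11, 6, 5, 4 and 8 of them, or 32.4%, 17.6%, 14.7%, 11.8% and 23.5%, where tested genes gave 26.4%, 15.1%, 19.8%, 15.3% and 23.4%. The closest pair, AT5G59390 and AT5G59490 on chromosome 5, was 25.3 kb apart, and the median distance to the nearest other locus of the set was 1362 kb. The locus nearest to HTA9 was AT1G53340 (chromosome 1, 19898849 to 19901091), 252 kb away, and the nearest to HTA11 was AT3G50940 (chromosome 3, 18933751 to 18935611), 1261 kb away.

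The surroundings of the loci were compared by gene number. The median number of protein-coding genes starting within 100 kb on either side was 57 for the 31 protein-coding loci, 55 for other tested protein-coding genes and 53 for other near-silent protein-coding genes. The lowest numbers were at CYP705A13 (19 protein-coding genes and 22 pseudogenes within 100 kb), AT2G15220 (27 and 16) and the pseudogene AT3G29156 (27 and 16). The median exonic length of the protein-coding loci was 1499 bases with 4 exons, between tested genes (1783 bases, 5 exons) and other near-silent genes (968.5 bases, 2 exons). The rule used CPM without scaling by length, so these lengths are not independent of the choice. The strand was plus for 14 and minus for 20 of the 34.

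Some counts could be shared with other loci. A stretch of at least 100 bases with at least 95% identity elsewhere in the genome was found for 3 of the 34. AT1G27580 matched AT1G27540 over 90.6% of its exonic bases, at an identity of 97.5%, and AT1G27540 had 11.4 and 14.5 CPM in wild type and mutant. For AT5G37940 and AT2G15220 the share was 30.7% and 30.4%, with copies at AT5G38000 and AT2G15120. Of the 34 loci, 4 overlapped an annotated gene, AT1G27580 among them. AT5G05420 shared 73 bases with DREB2A on the other strand, which had 3.50 and 3.38 CPM (edgeR adjusted p = 0.85), and the genes overlapping AT1G27580, AT1G33030 and AT2G43140 had between them 1 count or none in a library.

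The nearest genes on either side of the loci were tested in the same fit. Of 68 neighbours, 49 were tested, 1 rose (2.04%, against 2.49% of all tested genes) and none fell (1.25% of all tested genes fell). An unadjusted p under 0.05 was found for 8 of the 49 (16.3%), against 18.05% of all tested genes. Their median log2 fold change was 0.02, against a median of 0.00 over all tested genes and 1.82 over the 34 loci. DESeq2 called 1 neighbour higher and 1 lower. The neighbour that rose was AT5G05430, annotated as an RNA-binding protein (chromosome 5, 1605275 to 1606712), which lies 451 bases upstream of AT5G05420 on the same strand. It had 0.0541, 0.0984, 0.0262 and 0.0624 CPM in wild-type libraries 1 to 4 and 0.337, 1.04, 0.380 and 0.686 CPM in mutant libraries 1 to 4, so the fitted log2 difference was 3.19 with an SE of 0.53 and an adjusted p of 0.0116 in edgeR. The groups did not overlap, and mutant libraries 2 and 4 were the highest as in most of the 34 loci.

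Within 10 kb of the loci, 158 genes were tested, of which 3 rose (1.90%) and 1 fell (0.63%). Over all tested genes these shares were 2.49% and 1.25%, so neither was raised near the loci. CEL2, a cellulase near AT1G02770, had 4.36 ± 0.470 and 7.51 ± 1.61 CPM (log2 fold change 0.72, adjusted p = 0.0352). HPY2, a SUMO ligase gene that lies near CUC1, had 3.51 ± 0.188 and 5.74 ± 0.695 CPM (log2 fold change 0.65, adjusted p = 0.0153). AT4G18905, a WD40 gene 707 bases downstream of AT4G18900, had 25.9 ± 1.67 and 27.5 ± 2.78 CPM (adjusted p = 0.904).

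The closest relatives of the loci by protein sequence mostly had more wild-type reads than the loci. The rule kept the loci low in the wild type, so this follows in large part from the choice. Each of the 31 proteins had a relative outside the set, with identities from 33.6% to 94.3% (median 59.9%). Of these 31 relatives, 11 had a wild-type mean below 0.3 CPM and 20 were tested. In edgeR 0 of the 20 rose, against 2.49% of all tested genes, 5 (25%) had an unadjusted p under 0.05, against 18.05%, and the median log2 fold change was 0.04. DESeq2 called 2 higher. With every relative at a blastp E under 1e-30 counted, 307 were tested, of which 20 rose (6.51%) and 6 fell (1.95%). Most of those 20 were relatives of CYP705A13 or of AT1G53340, which had 211 and 126 relatives at E below 1e-10. The rest of the 20 were AT2G35310 and AT2G16210 (relatives of REM22), AT4G35370 (of AT4G18900), AT1G50770 (of AT1G50830) and AT5G16980 (of AT5G37940). Tested relatives were not counted by family, so the share cannot be read as one for relatives of the 31 proteins in general. FRO3, the relative of FRO1, had 47.2 and 75.3 CPM (adjusted p = 0.329), CUC2, the partner of CUC1 in organ separation, 0.456 and 0.616 CPM (adjusted p = 0.451), and INT4 15.5 and 16.7 CPM (adjusted p = 0.816). FRO3 passed without mutant library 1 (log2 fold change 0.85, adjusted p = 0.0333).

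One relative fell. PUP18 (AT1G57990), which lies 2.24 kb from PUP17, had 81.3, 61.8, 93.98 and 76.2 CPM in wild-type libraries 1 to 4 against 64.00, 48.2, 44.00 and 52.3 CPM in mutant libraries 1 to 4 (log2 fold change -0.65, SE 0.16, adjusted p = 0.0489). Wild-type library 2 lay below mutant library 1, so the groups overlapped. The call ended without mutant library 2, 3 or 4, without wild-type library 1, 3 or 4, without mutant libraries 1 and 3 together, and with a filter of 1 CPM in 4 libraries. Its highest adjusted p was 0.143, in the fit lacking mutant library 2. PUP17 itself was higher in the mutant by 3.79-fold on its means.

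**Figure D5:**
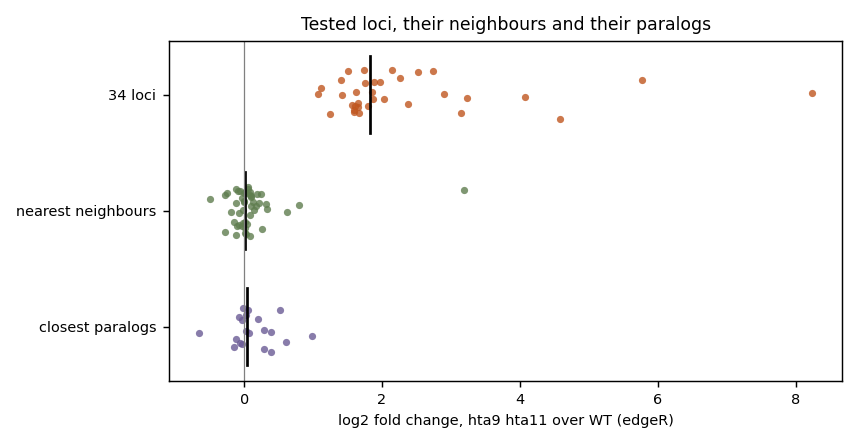
Log2 fold change of hta9 hta11 over wild type for the 34 loci, 49 tested nearest neighbours and 20 tested closest relatives (edgeR); each point is a gene, the vertical bar is the median and points are spread vertically for legibility. The medians are 1.82, 0.02 and 0.04, and the neighbour far to the right is AT5G05430 at 3.19.

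Markers of other organs were measured in the same libraries. Leaf genes were high in both genotypes, with 42406 to 48712 CPM summed over 8 markers in the wild type and 40785 to 44622 CPM in the mutant. Of 13 genes of floral organ identity, 10 were tested and 7 rose (70%, against 2.49% of all tested genes). The 13 genes summed to 22.5 to 25.4 CPM in the wild type and 36.7 to 50.2 CPM in hta9 hta11. SEP4 was the largest part of these sums, with means of 18.8 and 24.4 CPM (log2 fold change 0.32). AG had a lower mean in the mutant, with 0.978 and 0.722 CPM (log2 fold change -0.49, edgeR adjusted p = 0.301). Pollen genes stayed near 0 in both, with 0.221 to 0.531 and 0.329 to 0.569 CPM over 11 genes, 3 of which (ADF10, ANX2 and HTR10) had no count. None of 4 tested genes of 17 for anther and tapetum passed in edgeR, with 0 at an unadjusted p under 0.05 and sums of 27.4 to 32.6 and 31.9 to 34.4 CPM. Those sums are mostly the 4 tested genes, TPD1, LAP6, DRL1 and EMS1. Of the 13 genes below the filter, 3 (MS1, ATA7 and CYP703A2) had no count and the other 10 had a higher mean in the mutant. The 13 together had 0.0271, 0.0984, 0.131 and 0.0937 CPM in wild-type libraries 1 to 4 against 1.77, 1.45, 0.348 and 1.34 CPM in mutant libraries 1 to 4. Mutant library 1 was the highest in this sum and library 3 the lowest, whereas library 1 was the lowest in the sum of the 34 loci. DESeq2, run without that filter, called 4 of the 13 higher: ACOS5 (means of 0.00781 and 0.315 CPM), AMS (0.00677 and 0.2104 CPM), LAP5 (0.0332 and 0.228 CPM) and A9 (0 and 0.166 CPM). Of 8 meiosis genes 7 were tested and SYN1 rose, from 0.189 to 0.522 CPM. Of 10 endosperm genes 3 were tested and PHE1 rose, from 0.333 to 2.18 CPM, with FIS2 and ZOU at 0. Root genes (3 tested of 10) and seed maturation genes (1 tested of 16) had none past the test in edgeR, with 0 and 1 at an unadjusted p under 0.05. None of the 34 loci is on these lists, but AP3 and SEP2, 2 of the 7 floral genes that rose, met both thresholds and are absent only because they were set aside by name. The part of floral and anther transcripts in the levels of the 34 loci was not tested.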

How the data were processed

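Gene counts deposited by the authors for 8 libraries (4 per genotype) were used as given. The build TAIR10 and the tools HISAT2 2.2.1, fastp 0.23.2, SAMtools 1.17, limma and DESeq2 are named in the submitters' processing notes. How reads were assigned to genes, by which program and with which handling of strand and of several matches, is not given in the sources used here. The library kit keeps strand, per the labels' protocols. No column of values was left unused (0).

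The loci and the gene lists were chosen with earlier results of these data known. CPM used the total of each column. Differences were fitted over all genes with edgeR 4.0.16 in R 4.3.3 (quasi-likelihood test, TMM scaling, filter on low counts, Benjamini-Hochberg adjustment, threshold 0.05), with DESeq2 1.42.0, other scalings and filters, a replicate block and each library left out as alternatives. On simulated counts for 20086 genes, the fit of hta9 hta11 against wild type found 81 of 100 genes with a log2 change of 1, and 96 of 100 with a change of 2, at 11 false calls. The changed genes were drawn at random from all tested genes, whose median wild-type mean was 14.8 CPM, against 0.245 CPM for the 34 loci. These rates therefore need not hold for loci this low. Values in every library were to be given for the 10 loci of highest mutant mean, the 5 most and 5 least even over mutant libraries, those next to each limit, any with no wild-type count, the H2A.Z genes, and neighbours or closest relatives past the test. Beyond that rule, library values of REM22, AT3G29156, AT1G46552, AT5G07095, CUC1, FAF2, AT1G10770 and AT2G47050, and the means of FRO3, CUC2, INT4 and AT4G18905, were picked with their values in view. Of the locus IDs, 36632 were found in the RefSeq annotation (TAIR10.1) and 164 were not. Relatives were found with BLAST 2.17.0 (blastp, E below 1e-10). Replicates are separate pools of plants per the labels. Intervals and floors (3 counts) cover counting error only, and not the choice of the loci on the same counts.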

Additional observations from a re-analysis of the deposited data

Results flagged for a closer look

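The pseudogene AT1G46552 had 0.281 CPM in wild-type library 4, against 0.148, 0.157 and 0.162 CPM in the other wild-type libraries. The gap to the nearest library was 0.89 of the range of the group, above Dixon's critical value for 4 samples. Of 67 groups examined this was the only one past that value, and chance alone passes it in about 1 in 20 groups.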

How the results depend on the processing

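The number of changed genes was 757, and it was 1524 with DESeq2, 152 at an adjusted p under 0.01 and 208 to 1246 with 1 library left out. Of the 34 loci, 24 were called, 10 at an adjusted p under 0.01, 1 with a filter of 1 CPM, and 11 to 26 with 1 library left out. The count of neighbours that rose was 1 (AT5G05430), and 0 with the 1 CPM filter or an adjusted p under 0.01. It was 3 of 158 (1.90%) for all genes within 10 kb, 2 without mutant libraries 1 and 3, and 1 each time a library was left out. For closest relatives it was 0, 2 with DESeq2, 0 to 1 with 1 library left out, and 20 of 307 (6.51%) when all relatives at E under 1e-30 were counted. Most of those 20 were relatives of CYP705A13 or of AT1G53340. The rule gave 34 loci, 11 with a wild-type limit of 0.2 CPM, 159 with 0.5 CPM, 150 with a mutant limit of 0.3 CPM, 1 with 1 CPM, 11 when every wild-type library had to lie under 0.3 CPM, 109 without mutant libraries 1 and 3, and 33 to 63 with 1 library left out. The reverse rule gave 4 loci, and 0, 23, 27, 0, 1, 17 and 1 to 10 under the same settings. The median rho of 0.561 was 0.175 without the 10 most abundant loci. With the replicate number as a block, 847 genes and 22 of the loci were called. Deviations from the group means correlated between same-numbered libraries with r of 0.403, 0.353, -0.275 and -0.195. Differently numbered pairs ran from -0.371 to 0.419. Wild-type libraries 1 and 3 had positive r with mutant libraries 1 and 4, and wild-type libraries 2 and 4 with mutant libraries 2 and 3. All other pairs were negative. What libraries of the 2 genotypes share was not tested. Leaving out mutant libraries 1 and 3 was chosen after seeing the data. The cause of these changes was not tested. Of 100 genes followed through the alternatives, 28 had fold changes of both signs, none of them with a call in a fit of opposite sign and none of them among the 34 loci. At 16 to 199 counts in a mutant library, depth limits how closely a single locus can be ranked.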
